A study of Rattus norvegicus with 8 samples.

Results

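The CYP3A family of cytochrome P450 enzymes was measured in rat liver by 8 probe sets, chosen because their annotated gene symbol begins with Cyp3a and a digit, out of 8740 non-control probe sets on the array. Of these, 7 are matched to 1 gene each and cover 4 genes, Cyp3a2, Cyp3a9, Cyp3a18 and Cyp3a23-3a1, the last with 4 probe sets. The remaining probe set is matched to both Cyp3a2 and Cyp3a23-3a1 and is given apart. No probe set used here is annotated to Cyp3a62.

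The samples were snap-frozen livers of 8 male Fischer 344 rats, labelled with an age of 6 without a unit and fed AIN 76A chow. In 4 rats the gavage held D3T (3H-1,2-dithiole-3-thione) at 0.3 mmol per kg body weight in saturated sucrose, given on days 1, 3 and 5. The other 4 rats received 0.2 ml of the sucrose vehicle, with the same days stated for all but vehicle replicate 2. Total RNA of each liver went onto 1 Affymetrix rat genome array, so each array is 1 animal, and the only comparison is D3T against vehicle.

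CYP3A enzymes are heme proteins of the endoplasmic reticulum that oxidise steroids, bile acids and many drugs. Their genes are known for induction through the pregnane X receptor, encoded by Nr1i2, which binds DNA together with a retinoid X receptor. In the rat, Cyp3a2 and Cyp3a18 are known as male-predominant liver forms under growth hormone control, Cyp3a9 as a form favoured in females, and Cyp3a23-3a1 as the classical form induced by dexamethasone.

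The annotation places 8 Cyp3a genes on chromosome 12. Cyp3a2 and Cyp3a23-3a1 stand next to each other with no annotated gene between them, in a run that also holds Cyp3a18, whereas Cyp3a62 and Cyp3a9 follow after 170 other genes. The promoters of the 4 measured genes are shown because a receptor site is known in rat Cyp3a promoters, found here in 2 of the 4 windows. Any relation of these windows to the changes of the transcripts was not tested. Each window runs from 250 bases before to 50 bases after the gene start in RefSeq on GRCr8, written 5′ to 3′ on the gene's strand, and capitals mark the receptor hexamer AGTTCA or its reverse complement TGAACT. The windows are chr12:14343808-14344107 (minus strand) for Cyp3a2, chr12:14398754-14399053 (minus) for Cyp3a23-3a1, chr12:21960111-21960410 (minus) for Cyp3a9 and chr12:13994062-13994361 (plus) for Cyp3a18.
Cyp3a2: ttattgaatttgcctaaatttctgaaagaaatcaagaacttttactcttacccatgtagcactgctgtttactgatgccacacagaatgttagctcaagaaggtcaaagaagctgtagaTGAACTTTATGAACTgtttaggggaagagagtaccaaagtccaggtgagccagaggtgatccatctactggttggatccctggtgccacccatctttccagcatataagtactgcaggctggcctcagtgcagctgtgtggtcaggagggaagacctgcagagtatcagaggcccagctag
Cyp3a23-3a1: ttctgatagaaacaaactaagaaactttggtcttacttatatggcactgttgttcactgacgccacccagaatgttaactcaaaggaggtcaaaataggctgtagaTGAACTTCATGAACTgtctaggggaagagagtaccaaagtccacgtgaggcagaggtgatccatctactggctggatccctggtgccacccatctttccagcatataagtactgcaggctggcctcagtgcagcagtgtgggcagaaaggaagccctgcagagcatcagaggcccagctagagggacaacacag
Cyp3a9: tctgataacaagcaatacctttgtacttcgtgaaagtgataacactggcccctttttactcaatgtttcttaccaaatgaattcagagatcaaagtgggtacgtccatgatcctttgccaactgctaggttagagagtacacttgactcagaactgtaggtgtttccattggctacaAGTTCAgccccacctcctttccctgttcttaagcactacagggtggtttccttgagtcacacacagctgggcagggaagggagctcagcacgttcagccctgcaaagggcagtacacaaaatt
Cyp3a18: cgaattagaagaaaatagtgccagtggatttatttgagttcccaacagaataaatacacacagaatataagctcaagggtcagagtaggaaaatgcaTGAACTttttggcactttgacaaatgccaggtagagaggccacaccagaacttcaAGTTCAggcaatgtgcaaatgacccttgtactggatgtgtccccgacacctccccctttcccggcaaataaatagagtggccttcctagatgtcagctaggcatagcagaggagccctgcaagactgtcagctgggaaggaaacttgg

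Cyp3a2 and Cyp3a23-3a1 each hold a direct repeat of the hexamer with 3 bases between the copies, at 131 and 144 bases before the start, where the capitals form 1 run of letters that includes the spacer. These letters, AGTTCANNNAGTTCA on either strand, occur in 2 of 33469 promoter windows of this length (0.00598%), namely these 2. The motif was taken from what is known of rat Cyp3a promoters, so its presence there is a description and not a result. Cyp3a9 has 1 hexamer, at 73 bases before the start, and Cyp3a18 has 2 separate hexamers, at 98 and 153 bases. A single hexamer, which is also part of each direct repeat, was found in 14.5% of all windows. The everted repeat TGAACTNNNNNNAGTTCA, in these exact letters, was in 0 of the 33469 windows. Hexamers with other letters were not searched, so this count does not show that a related everted site is absent. The core of the antioxidant response element through which Nfe2l2 acts, TGACNNNGC on either strand, was in 0 of these 4 windows and in 12.1% of all windows. Over the aligned windows Cyp3a2 and Cyp3a23-3a1 were 80.6% identical, and Cyp3a2 was 51.5% identical to Cyp3a9 and 53.6% to Cyp3a18. A match of letters shows no binding, and the array files hold no measurement of it.

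D3T-treated livers had lower Cyp3a2 and Cyp3a9 signals, a lower signal from 2 of the 4 Cyp3a23-3a1 probe sets, and no change past the threshold for Cyp3a18. Signals are MAS5 intensities rescaled so that the 2% trimmed mean of each array is 500. Changes were tested with limma over 5244 probe sets at a Benjamini-Hochberg adjusted p under 0.05. All 8 CYP3A probe sets passed the filter on dim probe sets and lay at least 8.07 times above the signal floor in every array. Of the 8, 4 were lower, against 6.48% lower and 10.7% in either direction among all probe sets tested. In limma 0 of the 8 were higher, where 4.2% of all tested probe sets were. At an unadjusted p under 0.05 the counts were also 4 lower and 0 higher, against 16.7% lower and 12.5% higher among all tested. In 3 of the 8 every D3T array lay below every vehicle array, against 11.3% of all probe sets tested, and 7.89% had every D3T array above. The log2 fold change was negative for 7 of the 8, with a median of -0.58 where the median over all tested probe sets was 0.02. In bulk liver RNA, fewer cells of a type and less RNA per cell cannot be told apart.

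**Figure D1:**
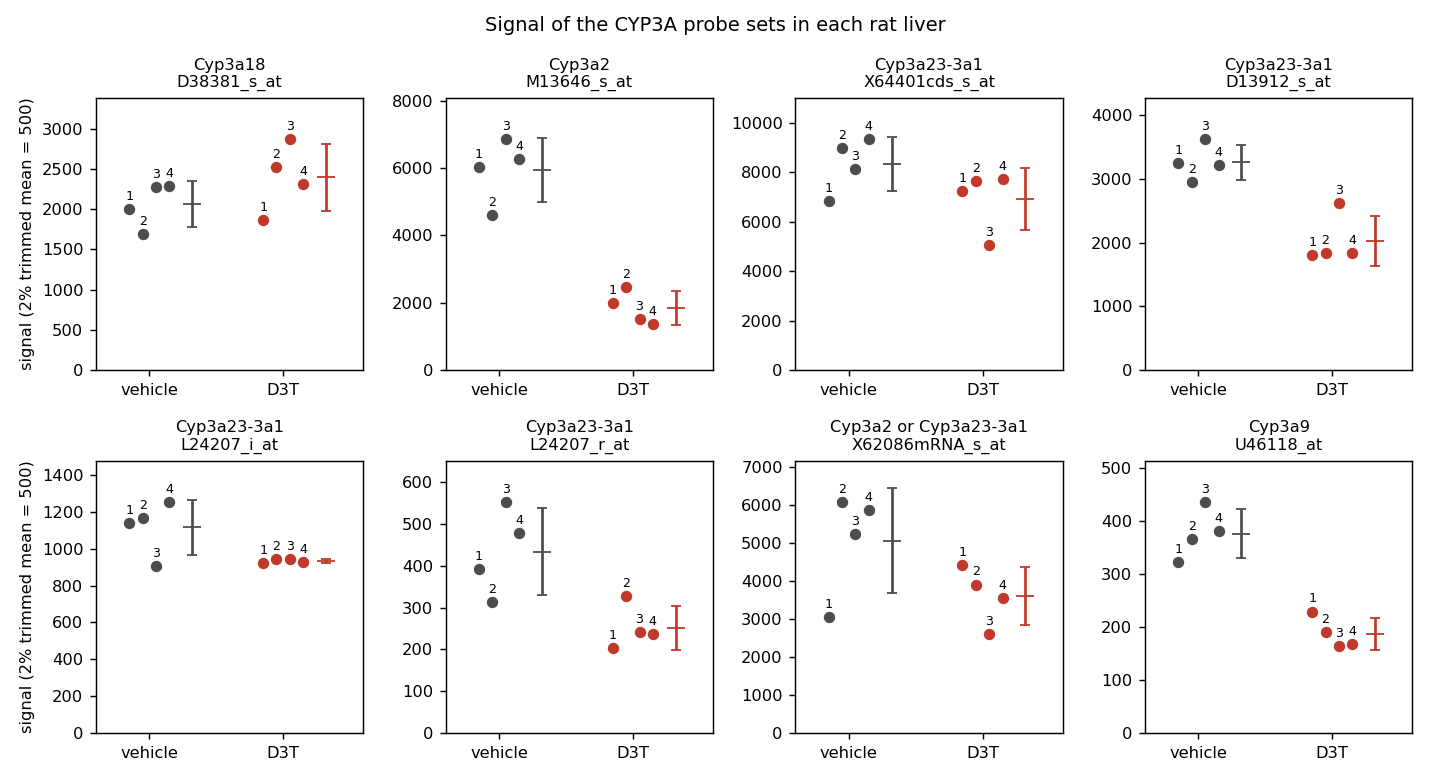
Each panel plots 1 CYP3A probe set, with the rescaled signal on a linear axis from 0, a point per rat numbered by replicate, and the mean with its SD (n = 4) beside each group. Cyp3a2 (M13646_s_at), Cyp3a9 (U46118_at) and 1 Cyp3a23-3a1 probe set (D13912_s_at) have all 4 D3T points below all 4 vehicle points, while Cyp3a18 overlaps between the groups.

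Cyp3a2, the male-predominant form that hydroxylates testosterone, was measured by M13646_s_at. Its signal was 6019, 4596, 6846 and 6266 in vehicle replicates 1 to 4 and 1997, 2482, 1525 and 1360.1 in D3T replicates 1 to 4. The highest D3T rat, replicate 2, lay below the lowest vehicle rat, also replicate 2, so the groups did not overlap. The means were 5931.5 ± 955.5 (SD, n = 4) and 1841 ± 505.4. Folds throughout come from the fitted log2 fold change, not from such means, and Cyp3a2 was 3.28-fold lower after D3T. The log2 fold change was -1.71 ± 0.19 (SE), with a 95% interval from -2.14 to -1.28 and a limma adjusted p of 0.000553. Among the tested probe sets 0.648% had a more negative fold change. The fall kept its call without any 1 array, with log2 fold changes from -1.87 to -1.58.

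Cyp3a9, the form known as female-favoured in rat liver, was measured by U46118_at, whose name carries no mark of shared sequence. Its signal was 322.9, 366.2, 436 and 380.8 in vehicle rats 1 to 4 and 229.4, 189.8, 163.6 and 167.5 in D3T rats 1 to 4. Every D3T rat lay below every vehicle rat. The mean went from 376.5 ± 46.7 (SD, n = 4) to 187.6 ± 30.2, 2.01-fold lower (log2 fold change -1.01 ± 0.18, SE; 95% interval -1.41 to -0.62; limma adjusted p = 0.00782). The call held without any 1 array, with log2 fold changes from -1.11 to -0.94.

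Cyp3a23-3a1, the inducible form, gave different answers by probe set. The probe set D13912_s_at read 3246, 2948, 3620.4 and 3225 in vehicle rats 1 to 4 and 1804, 1844, 2622 and 1844 in D3T rats 1 to 4. D3T replicate 3 stood above the other D3T rats but below every vehicle rat. It was 1.62-fold lower (log2 fold change -0.70 ± 0.14, SE; limma adjusted p = 0.0136), and the call held without any 1 array.

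The probe set L24207_r_at read 392.01, 314, 552.5 and 478.8 in vehicle rats and 203.2, 326.7, 240.6 and 237.8 in D3T rats, so D3T replicate 2 lay above vehicle replicate 2. It was 1.71-fold lower (log2 fold change -0.77 ± 0.22, SE), with a limma adjusted p of 0.0467, close to the threshold. The call was lost without D3T replicate 1 (adjusted p = 0.113), D3T replicate 3 (0.0826), D3T replicate 4 (0.101), vehicle replicate 1 (0.0839), vehicle replicate 3 (0.128) or vehicle replicate 4 (0.111). It was also lost with no filter (0.105), with no intensity trend (0.0699) and with quantile normalization (0.0597).

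X64401cds_s_at did not pass, at 6857, 8980.1, 8148 and 9328 in vehicle rats and 7227, 7640.04, 5079 and 7744 in D3T rats. The groups overlapped, and its log2 fold change was -0.28 ± 0.16 (SE; 95% interval -0.62 to 0.07; limma adjusted p = 0.264). The values of L24207_i_at were 1138, 1169, 903.8 and 1252 in vehicle rats and 921.6, 941.4, 943.3 and 925.9 in D3T rats. Its D3T rats had a coefficient of variation of 1.17% and lay above vehicle replicate 3, and it did not pass either (log2 fold change -0.25 ± 0.13, SE; limma adjusted p = 0.229). All 4 fold changes of this gene were negative, and the intervals of the 4 probe sets overlap.

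The names of these probe sets bear on what they can detect. An ending in _s_at marks a set that can match several transcripts, and _i_at and _r_at mark sets that did not meet all design rules for probes. Of the 8 CYP3A probe sets 5 end in _s_at, 1 in _i_at and 1 in _r_at, and the sequences of the single probes were not used here. The signal of the neighbouring and closely related Cyp3a2 and Cyp3a23-3a1 may therefore be shared between probe sets. X62086mRNA_s_at, which is matched to both genes, read 3056, 6073, 5235 and 5871 in vehicle rats and 4409, 3905, 2599 and 3541 in D3T rats. Vehicle replicate 1 lay among the D3T rats, and the probe set did not pass (log2 fold change -0.46 ± 0.23, SE; limma adjusted p = 0.207). Without vehicle replicate 1 its log2 fold change was -0.69, which still did not pass (adjusted p = 0.0558).

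Cyp3a18, another male-predominant form of rat liver, was measured by D38381_s_at at 2007, 1687, 2273 and 2288 in vehicle rats and 1869, 2526, 2864 and 2311 in D3T rats. The groups overlapped, with the lowest D3T rat, replicate 1, inside the vehicle range and the highest, replicate 3, above it. The vehicle mean was 2064 ± 282.6 (SD, n = 4) and the D3T mean 2392 ± 416.7. The fitted change was 0.21 ± 0.16 on the log2 scale (SE; limma adjusted p = 0.393). The 95% interval, from -0.14 to 0.55, holds neither the fall of Cyp3a2 nor that of Cyp3a9.

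**Figure D2:**
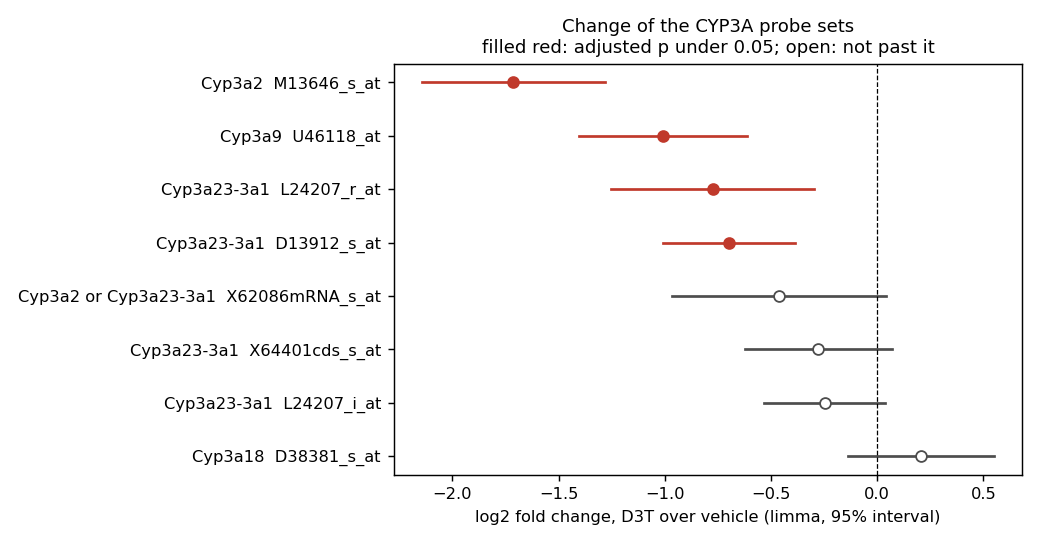
The horizontal axis is the log2 fold change of D3T over vehicle from limma, with a point and a 95% interval for each of the 8 CYP3A probe sets, filled red where the adjusted p was under 0.05. Cyp3a2 lies at -1.71 and Cyp3a9 at -1.01, the 4 Cyp3a23-3a1 probe sets between -0.77 and -0.25, and Cyp3a18 at 0.21.

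Within single arrays, the fall of Cyp3a2 was larger than the changes of Cyp3a18 and Cyp3a23-3a1. The log2 signal of each of the other genes, by its brightest probe set, was subtracted from that of Cyp3a2 in the same array, so that the scaling of arrays cancels. These differences were compared between groups with a two-sided exact permutation test over all 70 assignments of rats, whose smallest possible p is 0.0286. For Cyp3a18 the difference was 1.45 to 1.59 in vehicle rats and -0.91 to 0.10 in D3T rats, with a mean D3T minus vehicle of -1.92. Its exact permutation p was 0.0286, and 0.0429 after Benjamini-Hochberg adjustment over the 3 pairs, with all 4 D3T rats below all 4 vehicle rats. For Cyp3a23-3a1 the difference was -0.97 to -0.19 in vehicle rats and -2.51 to -1.62 in D3T rats, also without overlap (D3T minus vehicle -1.44, exact p = 0.0286, adjusted 0.0429). With the mean of the 4 Cyp3a23-3a1 probe sets in place of the brightest, the value was -1.21 with the same adjusted p.

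Against Cyp3a9 the groups overlapped, at 3.65 to 4.22 in vehicle rats and 3.02 to 3.71 in D3T rats, where D3T replicate 2 lay above vehicle replicate 2. The difference was -0.70, with an exact permutation p of 0.0571 that stayed the same after adjustment. An unequal fall of Cyp3a2 and Cyp3a9 was thus not shown, and neither was an equal one. This pair passed without D3T replicate 2 (-0.85, adjusted exact p = 0.0286) and with quantile normalization (-0.72, adjusted exact p = 0.0286).

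**Figure D3:**
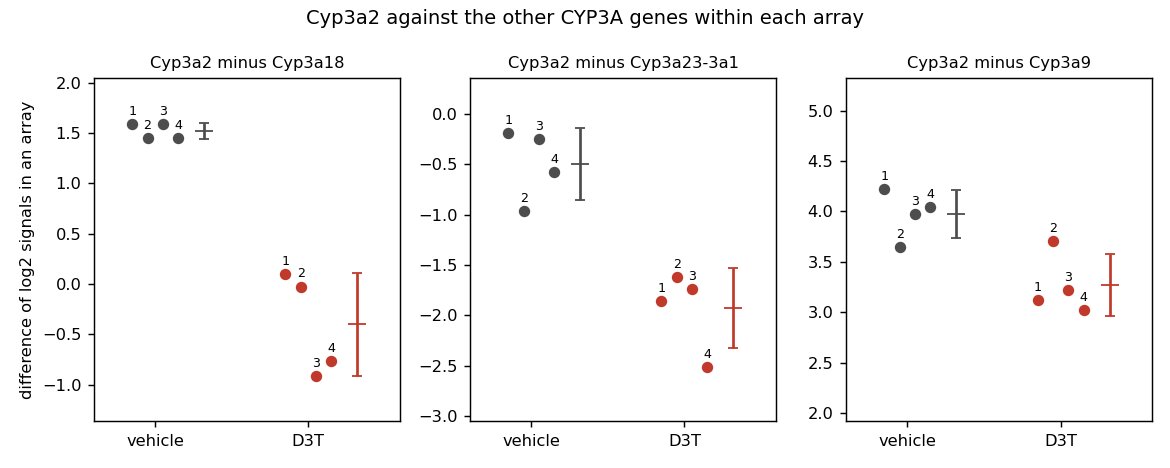
Each panel plots the log2 signal of Cyp3a2 minus that of another CYP3A gene in the same array, a point per rat numbered by replicate, with the mean and SD (n = 4), and every panel spans the same number of log2 units. The D3T rats lie wholly below the vehicle rats for Cyp3a18 and Cyp3a23-3a1, and D3T replicate 2 overlaps the vehicle rats for Cyp3a9.

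A ratio that reads RNA integrity on the array was lower in 3 of the 4 D3T rats than in any vehicle rat. The 3'/5' signal ratio of the actin control was 1.59, 1.53, 1.45 and 1.59 in vehicle rats 1 to 4 and 1.32, 1.34, 1.47 and 1.17 in D3T rats 1 to 4 (exact permutation p = 0.0571, adjusted 0.114 over 2 ratios, the other being that of Gapdh with an exact p of 0.114). With this ratio as a covariate 0 of the 8 CYP3A probe sets passed limma, while 5 had an unadjusted p under 0.05, all lower, against 8.31% lower of all tested in that fit, and 35 probe sets passed in all. The log2 fold change was then -1.60 for Cyp3a2 (adjusted p = 0.0667), -1.11 for Cyp3a9 (0.135), -0.49 for D13912_s_at (0.338) and -0.82 for L24207_r_at (0.335). It was -0.59 for X64401cds_s_at (0.252) and -0.78 for the probe set of both genes, X62086mRNA_s_at (0.350). The part of RNA integrity in the CYP3A results was not tested beyond this fit.

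Hepatocyte markers were bright in all arrays, with Alb, encoding albumin, between 29870 and 65910 (rounded signals of single rats). The summed signal of 10 hepatocyte markers was 212904 to 324079 in vehicle and 272064 to 376851 in D3T rats, and 1 of 10 passed the test, fibrinogen beta (Fgb), 1.74-fold lower (log2 fold change -0.80, but -0.43 with an adjusted p of 0.379 with the actin covariate). At an unadjusted p under 0.05, 4 hepatocyte markers were higher (Alb, Ttr, Apoc3 and Serpina1, with log2 fold changes from 0.36 to 0.46) and 1 lower, and the list's median was 0.18. For all marker counts here, the shares over all 3150 genes tested, each by 1 probe set, were 3.71% higher and 5.84% lower in limma. At an unadjusted p under 0.05 these shares were 13% and 16.8%. Markers of Kupffer cells, the liver's macrophages, summed over 4 genes to 3704 to 3988 in vehicle and 2166 to 2885 in D3T rats, with 1 of 3 tested lower, C1qb at 1.73-fold. All 3 were lower at an unadjusted p under 0.05. The C1qb call was lost in 1 of 17 alternative fits (limma adjusted p = 0.210). Red blood cell markers summed over 4 genes to 14989 to 20649 and 10625 to 14427, and lymphocyte markers over 6 genes to 455.6 to 539.6 and 600.2 to 621.3. Of the 4 red blood cell markers limma called 0, with 2 lower at an unadjusted p under 0.05. Most of their sum came from Hbb (means 12134 in vehicle and 8478 in D3T rats), while Slc4a1 averaged 326.1 and 408.6. Stellate cell (1628 to 3029 and 1360.3 to 1804, 6 genes), endothelial (355.7 to 507.6 and 232.6 to 442.9, 3 genes) and cholangiocyte markers (221.7 to 339.6 and 254.7 to 342.4, 3 genes) overlapped between the groups. Among stellate markers the collagen gene Col3a1 was 1.86-fold lower, a call lost without any 1 array other than D3T replicate 2 or vehicle replicate 2. Of 6 measured lymphocyte markers 3 were tested and limma called 0, with 2 higher at an unadjusted p under 0.05. Cd4, also made by macrophages, averaged 216.6 and 295.6 and Ptprc 134.5 and 212.04, while Cd8a averaged 38.4 and 25.0, and Cd3d and Cd2 lay under the signal floor of 20.3 on average in both groups. The part of these markers in the CYP3A results was not tested.

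The transcription factors known to act on Cyp3a genes were described from a list of 25, of which 18 were tested, 3 higher and 1 lower, with a median log2 fold change of 0.35 against 0.03 over all 3150 genes tested. Among these genes, each by 1 probe set, 3.71% were higher and 5.84% lower, and at an unadjusted p under 0.05 13% were higher and 16.8% lower, and the lists below are read beside these shares. No probe set here was matched to Nr1i2 or to Nr1i3, the gene of the related receptor CAR. Their partner Rxra, a retinoid X receptor, read 99.9, 125.1, 39.4 and 222.2 in vehicle rats and 507.1, 687.2, 437.4 and 682.7 in D3T rats, so every D3T rat was higher. It was 5.55-fold higher (limma adjusted p = 0.00725, but 0.0527 with no filter and 0.130 with the actin covariate). Rxrb, another retinoid X receptor, was 1.55-fold higher (adjusted p = 0.0343) and Hnf4a, a hepatocyte factor required for Cyp3a expression, 1.41-fold higher (adjusted p = 0.0477). The call of Rxrb was kept in 1 of 8 fits without 1 array, the one without vehicle replicate 2, and that of Hnf4a in 0 of 8. Cebpb, a factor of the acute phase response, was 1.5-fold lower (adjusted p = 0.0186, but 0.0565 without D3T replicate 1 and 0.0575 without vehicle replicate 1). Over 17 alternative fits the largest limma adjusted p was 0.317 for Cebpb, 0.556 for Hnf4a and 0.210 for Rxrb. The glucocorticoid receptor gene Nr3c1 had a log2 fold change of -0.86 ± 0.27 (SE) and did not pass (adjusted p = 0.0659).

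Other genes known to be induced through the pregnane X receptor or CAR went both ways, with 3 higher and 3 lower of 12 tested (3.71% and 5.84% of all genes) and a median log2 fold change of -0.20. Cyp2b2, a phenobarbital-induced P450, read 1349, 1610, 1564 and 1273 in vehicle rats and 2530, 2936, 2705 and 3268 in D3T rats. It was 1.97-fold higher with no overlap (limma adjusted p = 0.00148). Aldh1a1, a retinaldehyde dehydrogenase, was 4.37-fold higher and Ugt2b1, a glucuronosyltransferase, 2.02-fold higher. Insig1, a brake on sterol synthesis, was 4.51-fold lower, and Sult2a1, a steroid sulfotransferase, 2.59-fold lower. The third lower gene, the export pump gene Abcc2, was named after its value was seen and was 1.91-fold lower. All probe sets that carry Cyp2b1 are also matched to Cyp2b2, so Cyp2b1 has no value of its own. The values above are from J00728cds_f_at for Cyp2b2 and D14988_f_at for Sult2a1, and signal shared with related genes was not examined. By its other tested probe set, K01721mRNA_s_at, Cyp2b2 had a smaller log2 fold change of 0.55 (limma adjusted p = 0.0205). With the actin covariate, Cyp2b2 (adjusted p = 0.121), Ugt2b1 (0.335), Insig1 (0.0774) and Sult2a1 (0.125) did not pass, whereas Aldh1a1 did (0.0410).

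**Figure D4:**
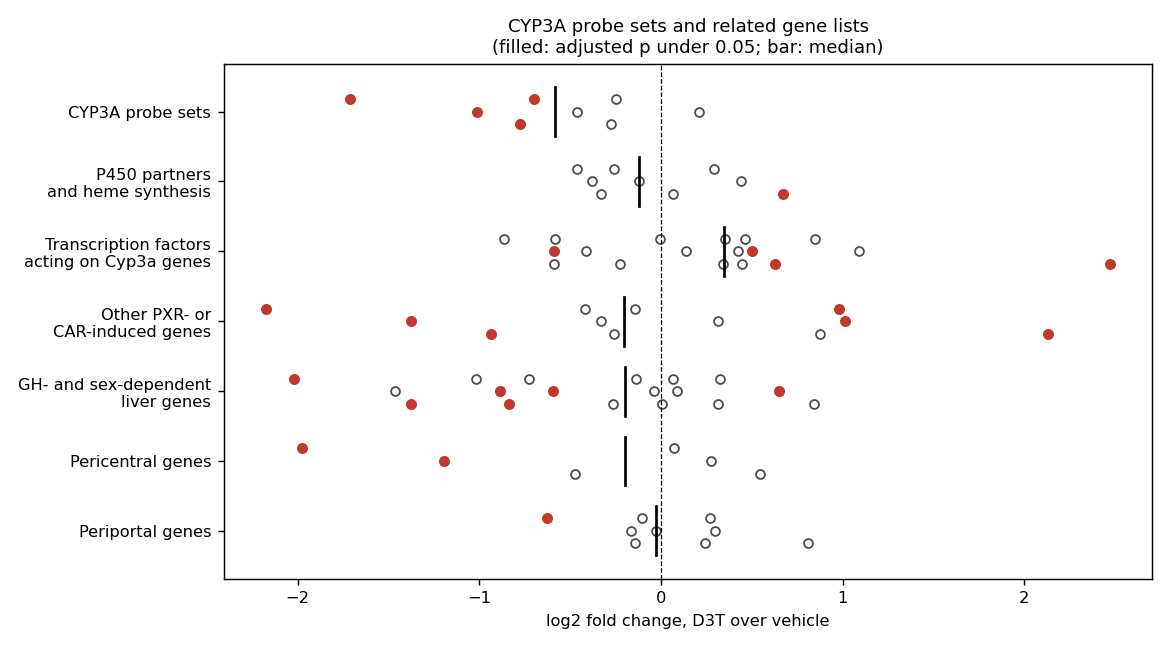
The horizontal axis is the log2 fold change of D3T over vehicle, with a circle for each CYP3A probe set in the top row and for each tested gene of 6 related lists below it, filled where the adjusted p was under 0.05, and a black bar at each median. The CYP3A median is -0.58, and the list medians run from -0.20 for genes induced through PXR or CAR to 0.35 for transcription factors.

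Growth hormone, whose pulses set the male pattern of rat liver P450s, was not itself measured. Of 24 listed genes that depend on it or on sex 18 were tested, 1 higher and 5 lower (3.71% and 5.84% of all genes). At an unadjusted p under 0.05, 3 were higher and 7 lower (13% and 16.8% of all genes). The list's median was -0.20 on the log2 scale where all genes had 0.03. Cyp2c11, the main male-specific P450 of rat liver, read 17870, 22120, 16800 and 15480 in vehicle rats and 17200, 15730, 21360 and 18020 in D3T rats (rounded signals). Its log2 fold change was 0.00 ± 0.14 (SE; limma adjusted p = 0.984), with a sign that turned to -0.26 under quantile normalization without passing. Cyp3a2, male-predominant as well, had the fall of -1.71 given above. Car3, a carbonic anhydrase higher in male rats, was 4.05-fold lower (adjusted p = 0.000253). Sult2a1, a female-predominant gene, was the 2.59-fold lower sulfotransferase of the preceding list. The growth hormone receptor gene Ghr was 1.78-fold lower by its brightest probe set (adjusted p = 0.0104), the only 1 of its 3 tested probe sets to pass, and Igfals, a hormone-dependent carrier of IGF-1, 1.85-fold lower (adjusted p = 0.0136). Igf1 itself (1.51-fold lower) and Cyp2a1 (1.57-fold higher) were named after their values were seen. So were other P450s of the list that did not pass. Their log2 fold changes were -0.04 for Cyp2a2, 0.32 for Cyp2c13, 0.32 for Cyp2c7 and -1.46 for Cyp2c12 (limma adjusted p = 0.0564). Ghr was lower by 0.36 (log2 fold change -0.36) with the actin covariate, less than in the fit without it (-0.84), and did not pass (adjusted p = 0.360).

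Of 9 tested genes for proteins that pass electrons to P450s or make heme, 1 was higher, Cyb5a, encoding cytochrome b5, at 1.59-fold (limma adjusted p = 0.0174, but 0.0558 without vehicle replicate 1, 0.0599 with no filter and 0.199 with the actin covariate). The count of lower genes was 0 in limma, with 2 lower and 2 higher at an unadjusted p under 0.05 (16.8% and 13% of all genes), and the median log2 fold change was -0.12. Por, the P450 reductase, had a log2 fold change of -0.33 ± 0.15 (SE; adjusted p = 0.183) and Alas1, the first enzyme of heme synthesis, -0.26 ± 0.20 (adjusted p = 0.408).

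Of the other named genes, 1 of 3 tested probe sets passed for Cyb5a and for Hnf4a, 1 of 2 for Cebpb and for Asl, 2 of 3 for Igfals and 3 of 5 for Igf1. No probe set of these genes had the opposite sign. For Cyp2c11, near 0, 2 of 3 tested probe sets had a sign opposite to the brightest, and for Alas1 1 of 2 did.

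CYP3A enzymes are found mainly in pericentral hepatocytes, those around the central vein. Of 6 pericentral genes tested 2 were lower, Oat (ornithine aminotransferase, 3.94-fold) and Cyp1a2 (a P450 of aromatic amines, 2.28-fold), and the list's median log2 fold change was -0.20. Of all genes 5.84% were lower. With the actin covariate the Cyp1a2 probe set was at -0.65 (adjusted p = 0.251) and that of Oat at -2.03 (0.0963), so neither passed, while another Cyp1a2 probe set, E01184cds_s_at, did (0.0411). The count of higher genes was 0 in limma by the brightest probe set, with 1 at an unadjusted p under 0.05. By other probe sets, named after their values were seen, Cyp2e1, an ethanol-oxidising P450, was higher in 2 of its 3 tested probe sets (AF056333_s_at at 0.47, adjusted p = 0.0310). Glul, glutamine synthetase, was likewise lower in 2 of 4 (M91652complete_seq_g_at at -0.72, adjusted p = 0.00513). Of 9 periportal genes 1 was lower, Asl of the urea cycle at 1.54-fold (adjusted p = 0.0399, a call lost without any 1 array other than D3T replicate 3). Its largest limma adjusted p over 17 alternative fits was 0.639. The median of the periportal list was -0.03, and limma called 0 of it higher, 1 at an unadjusted p under 0.05. The difference between these lists was not tested.

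The patterns nearest to that of Cyp3a2 were sought among 4291 tested probe sets with 1 gene outside the family. Each log2 profile over the 8 arrays was centred on its own vehicle mean and the root mean square difference was taken. The 6 nearest probe sets were those of Cdh17, a cadherin (0.24), RT1-DMb, a class II antigen presentation gene (0.28), Oat (0.28), Cyp1a2 (0.29), Slc28a2, a nucleoside transporter (0.32), and Fdps, of isoprenoid synthesis (0.33). Cdh17 fell from 289.5 ± 67.5 (SD, n = 4) to 104 ± 20.8 and this Cyp1a2 probe set from 2705 ± 350.1 to 1009 ± 155.1. Cyp3a9 was 0.55 from Cyp3a2, with 49 probe sets of other genes nearer. The Cyp3a23-3a1 probe sets lay between 0.70 and 1.09 from it and Cyp3a18 at 1.39, with 2635 others nearer. The likeness rests on 8 arrays in 2 groups, so it mostly reflects the size of the group difference.

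Side by side with related P450 families, the CYP3A probe sets had a median log2 fold change of -0.58, the 17 probe sets of the CYP2C family 0.00 and the 4 tested probe sets of the CYP1 family -1.31. In limma 0 of the CYP2C probe sets passed. At an unadjusted p under 0.05, 1 was lower and 3 higher, where 16.7% and 12.5% of all tested probe sets were. Limma called 3 of the 4 tested CYP1 probe sets lower, against 6.48% of all tested. Those 3 all belong to 1 gene, Cyp1a2, so the CYP1 median mostly reflects that gene. Only 4 of the 8 CYP1 probe sets were tested. Differences between families were not tested.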

How the data were processed

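Liver RNA of 4 D3T and 4 vehicle rats was analysed, 1 array per rat. The deposited table holds a linear signal intensity per probe set and array, made with MAS5 per the submitters' processing notes. The MAS5 version and scaling target are not given in the labels or headers. Groups and replicate numbers came from the sample titles. The 2% trimmed means of the deposited arrays lay between 500.8 and 501.02, and no count of molecules lies behind an intensity, so the number of arrays limits the precision. The CYP3A members, gene lists and tests were chosen with earlier results of these data known.

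Signals were scaled to a 2% trimmed mean of 500 per array, raised to a floor at the 20th percentile (20.3) and put on a log2 scale. Without the 59 control probe sets, the brightest 60% of 8740 were tested (5244) with limma (version 3.58.1; R 4.3.3), using lmFit and eBayes with an intensity trend. A list gene was represented by its brightest tested probe set with 1 symbol. Named genes were all CYP3A probe sets, up to 4 list members past the threshold with the largest change, and 12 genes fixed by name. Gene names came from the platform annotation (7006 probe sets with 1 symbol, 308 with several, 1426 with none), and the identifiers of the 4 family genes were all found in RefSeq (GRCr8), as were promoters for all 4. Promoter windows were aligned globally with Biopython version 1.88. On simulated data with 200 of 5244 probe sets changed for this comparison, 43.3% of 2-fold and 81.8% of 4-fold changes were recovered, with 4 false among 104 calls. Alternatives were other scalings, floors and filters, no intensity trend, the replicate number as a block, adjustment for the actin 3'/5' ratio and leaving out each array. The main fit did not pair rats by replicate number. The correlations of same-numbered deviations ran from -0.20 to 0.06, which cannot settle whether the numbers mark a pairing.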

Additional observations from a re-analysis of the deposited data

Results flagged for a closer look

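Within-group outliers were sought by Dixon's test in 76 groups of 4 rats (38 probe sets, vehicle and D3T), of which chance flags about 1 in 20, and 4 were found. A pair of Cyp3a23-3a1 probe sets stood out in the same D3T rat, replicate 3, in opposite directions. X64401cds_s_at read 5079 there, below 7227 to 7744 in the other D3T rats, and D13912_s_at read 2622, above 1804 to 1844 in the others. Vehicle replicate 3 was low for Rxrb, at 215.3 against 296.4 to 309.8 in the other vehicle rats, and for Cebpb, at 2016 against 2479 to 2559. Without D3T replicate 3 the log2 fold change was -0.13 for X64401cds_s_at and -0.83 for D13912_s_at.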

How the results depend on the processing

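Over 38 single results recomputed under the alternatives in which they were tested (641 values), 549 kept their direction and side of the threshold, 87 lost the call, 1 gained it and 4 reversed. Cyp3a2 (-1.87 to -1.58 on the log2 scale), Cyp3a9 (-1.11 to -0.94) and D13912_s_at (-0.83 to -0.65, and -0.49 with the actin covariate) stayed past the threshold in all alternatives that tested them except the actin covariate. The count of lower CYP3A probe sets was 3 or 4 except with the actin covariate, where it was 0, and it was 3 to 4 without 1 array, while the count of higher ones was 0 throughout. Over all probe sets, 560 calls (220 higher, 340 lower) became 35 (24 and 11) with the actin covariate, 333 (124 and 209) without the intensity trend, 309 (131 and 178) if unfiltered and 290 (99 and 191) with the replicate block. The causes were not tested. With the replicate block L24207_r_at lost its call (adjusted p = 0.102), as did Cyb5a (0.0608), Rxrb (0.0897), Hnf4a (0.101) and Col3a1 (0.0653). With no filter Fgb (0.0587), Igfals (0.0580), Sult2a1 (0.0676) and Ugt2b1 (0.0565) also lost theirs, and without the intensity trend Cyb5a (0.0532) and Cebpb (0.0518) did. Without 1 array the calls ran from 240 (100 to 315 higher, 140 to 380 lower) to 695. They numbered 260, 240 and 301 when vehicle replicate 1, 3 or 4 was dropped and 279 and 307 when D3T replicate 1 or 4 was. The difference between the changes of Cyp3a2 and Cyp3a9 did not pass in the main test. It ran from -0.85 to -0.62 without 1 array and passed at -0.72 with quantile normalization. The difference of Cyp3a2 against Cyp3a18 ran from -2.08 to -1.75 without 1 array, and against Cyp3a23-3a1 from -1.59 to -1.24. Both passed in all alternatives run. The permutation test of these pairs takes no covariate, so it holds no adjustment for the actin ratio. Cyp2c11, near 0, reversed to -0.26 with quantile normalization and ran from -0.079 to 0.11 without 1 array, with reversals to -0.079 (D3T replicate 3 left out), -0.026 (vehicle 3) and -0.065 (vehicle 4). Alb passed without vehicle replicate 2 (log2 fold change 0.60, adjusted p = 0.0299).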
